A study of Cricetiscus sungorus with 24 samples.

Results

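The genes described here are 50 enzymes of amino acid and creatine metabolism, taken by their symbols from the kidney transcriptomes of Djungarian hamsters. Of these, 49 were listed among the 15842 genes of experiment 2 and 42 among the 9681 genes of experiment 1. Each gene is represented by its transcript with the most counts. The list was drawn up by gene function, with earlier results of these data known. Kidney RNA of 24 animals was read by nanopore sequencing, 1 library per animal, in 2 experiments. Experiment 1 held adult males: 4 in a long photoperiod of 16 h of light per day (LP), 4 after 12 weeks in a short photoperiod of 8 h of light (SP12wk) and 4 after 28 weeks in the short photoperiod (SP28wk). Experiment 2 held adult females that had spent 8 weeks in the short photoperiod. Of these, 6 received intraperitoneal vehicle, a mixture of dimethyl sulfoxide and saline, on 3 days (SAL), and 6 received 18 µg of prolactin in the same vehicle on the same schedule (PRL). The comparisons ask whether the renal transcriptome follows the photoperiod in males and whether prolactin alters it in females kept in the short photoperiod. Sex, photoperiod history, sequencing run and depth cannot be told apart between the experiments, so that each was compared within itself.

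The kidney takes up nearly all filtered amino acids in the proximal tubule and remakes several of them. It turns citrulline into arginine, releases ammonia from glutamine, degrades glycine, proline and branched-chain amino acids in mitochondria, and oxidizes D-amino acids in peroxisomes. It also makes guanidinoacetate, the precursor that the liver methylates to creatine.

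Depth set what could be seen. Counts of 1 transcript per gene summed to 15687 to 57585 per library in experiment 1 and to 174053 to 756523 in experiment 2. A single count was therefore worth 17.4 to 63.7 CPM, the count scaled to a library total of 1000000, in the males and 1.32 to 5.75 CPM in the females. The members held 1829 counts in experiment 1 and 23419 in experiment 2. A count in every library was present for 8 members in the males and 42 in the females. Proximal tubule markers were found in every library, with sums of 943 to 1594 CPM in experiment 1 and 522 to 1562 CPM in experiment 2, although Cubn was not listed in either experiment. Most of the sum in the males was Lrp2, and without it the sums were 38.8 to 356 CPM in experiment 1 and 259 to 813 CPM in experiment 2. Of the liver markers, Alb had 3 counts in the females and was not listed in the males, and Apoa1 was not listed in either, whereas Ttr had 231 counts in the males and 1806 in the females. The library of LP replicate 2 stood apart within experiment 1. Ribosomal protein genes took 7.38% of its counts, against 11.8% to 18.2% in the other LP libraries, and it held no count of a collecting duct marker. In tissue RNA, fewer cells of a type and less RNA per cell cannot be told apart.

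PRL was compared with SAL to ask whether prolactin alters these enzymes. The most abundant of them, Miox, Oat, Hao2 and Ass1, covered overlapping ranges in both groups, and the members with the smallest unadjusted p were Ddc, with a lower mean in PRL, and Glul, with a higher one. No member passed an adjusted p of 0.05 among the 47 tested with the quasi-likelihood test of edgeR, and neither did any of the 10696 genes tested (0%). Without adjustment, Ddc alone had a p under 0.05, which was 1 of 47 members beside 4.88% of all genes in either direction and 2.34% lower in PRL. DESeq2 and limma-voom each gave 2 members at an unadjusted p under 0.05 and none after adjustment. They gave 347 and 598 of all 10696 genes at that unadjusted p. No member had groups that did not overlap, as 0.14% of all genes had.

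In creatine synthesis, Gatm makes guanidinoacetate from arginine and glycine. It ran from 173 to 274 CPM in SAL with a median of 264, and from 102 to 282 CPM in PRL with a median of 203. Its 4 highest SAL libraries lay between 259.6 and 274 CPM, whereas the PRL libraries were spread over the whole range. Gamt, which methylates guanidinoacetate to creatine, measured 126 ± 42.5 CPM in SAL and 121 ± 53.0 CPM in PRL (mean ± SD, n = 6, here and below for the females). Ckb, the cytosolic creatine kinase, measured 250.3 ± 59.3 CPM in SAL and 274 ± 92.2 CPM in PRL. The mitochondrial kinase Ckmt1 had 42 counts over the 12 libraries.

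Arginine is made from citrulline by Ass1 and Asl. Ass1 ran from 247 CPM in SAL replicate 6 to 500.03 CPM in SAL replicate 1, with a median of 365, and from 217 to 451 CPM in PRL with a median of 387. The groups overlapped over most of their range. Asl was far less sampled, with 59 counts over the experiment. Arg2, the mitochondrial arginase, measured 132 ± 35.3 CPM in SAL and 134 ± 41.2 CPM in PRL. Oat, which turns ornithine into a precursor of glutamate and proline, ran from 192 to 827 CPM in SAL with a median of 431, and from 324 to 643 CPM in PRL with a median of 520. The PRL libraries all lay inside the range of the SAL libraries.

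Of the proline enzymes, Prodh, which opens proline degradation, measured 35.6 ± 8.6 CPM in SAL, with 40.8 ± 18.7 CPM in PRL. Prodh2, the dehydrogenase of hydroxyproline, ran from 35.7 to 75.7 CPM in SAL with a median of 47.0, and from 11.9 to 91.9 CPM in PRL with a median of 33.4. Of the PRL libraries, 3 lay under all SAL libraries and 1 lay above them. Aldh4a1, the next step after Prodh, had 26 counts, and Pycr1, which makes proline, was not listed in either experiment.

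Glul, the glutamine synthetase, showed the narrowest spread of the members with at least 100 counts. It measured 189, 127, 224, 171, 199 and 182 CPM in SAL replicates 1 to 6 and 307, 252, 221, 271, 213 and 216 CPM in PRL replicates 1 to 6. All 6 PRL libraries lay above the SAL median of 186 CPM, and only SAL replicate 3 reached into the range of PRL. These CPM carry no TMM scaling, which edgeR uses. The TMM factor of PRL replicate 5 was 1.17, the highest of experiment 2, so that this separation depended on the scaling. Glud1, the glutamate dehydrogenase, measured 98.3 ± 14.1 CPM in SAL and 99.1 ± 27.4 CPM in PRL. The aminotransferases were sampled less, Agxt2 with 56.7 ± 28.5 CPM in SAL against 54.4 ± 22.0 CPM in PRL, and Got2, Got1 and Gpt with 230, 117 and 45 counts in the experiment.

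Among the oxidases, Hao2, a peroxisomal hydroxyacid oxidase, had 1725 counts. It measured 395, 447, 571, 418, 260.1 and 60.8 CPM in SAL replicates 1 to 6 and 402, 513, 221, 409, 724 and 162 CPM in PRL replicates 1 to 6. The lowest SAL library thus lay under every PRL library, and the rest of the SAL libraries lay inside the PRL range. Dao, which oxidizes D-amino acids, measured 55.0 ± 27.2 CPM in SAL and 72.2 ± 43.8 CPM in PRL. Ddo, which oxidizes D-aspartate, had 1 count, in PRL replicate 2.

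Tyrosine is broken down by Hpd, Hgd and Fah in turn, while Ddc makes dopamine from L-DOPA. Hpd measured 61.6 ± 23.9 CPM in SAL and 64.7 ± 28.8 CPM in PRL. Hgd measured 43.9 ± 22.2 CPM in SAL and 47.9 ± 18.1 CPM in PRL. Fah, which carries out the last step, measured 73.1 ± 21.2 CPM in SAL and 93.5 ± 36.2 CPM in PRL. These 3 steps of 1 pathway overlapped between the groups. Ddc measured 48.7, 62.4, 50.2, 39.5, 21.4 and 41.6 CPM in SAL replicates 1 to 6 and 26.8, 30.4, 7.91, 23.0, 74.7 and 17.0 CPM in PRL replicates 1 to 6. In PRL, 5 of the libraries lay under 5 of the 6 SAL libraries, and PRL replicate 5 lay above all of them.

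Glyat, which couples glycine to acyl groups, ran from 128 to 376 CPM in SAL with a median of 256, and from 154 to 431 CPM in PRL with a median of 288. The glycine cleavage system is built from Gldc, Gcsh and Amt with a further shared subunit. Gldc, its decarboxylase, varied little and measured 132 ± 17.2 CPM in SAL and 113 ± 25.9 CPM in PRL. Gcsh, the carrier protein, ran from 38.4 to 104 CPM in SAL and from 51.0 to 97.7 CPM in PRL. Amt had 70 counts. Of the serine hydroxymethyltransferases, the mitochondrial Shmt2 had 287 counts and the cytosolic Shmt1 had 89.

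In sulfur metabolism, Cth, which releases cysteine from cystathionine, ran from 19.2 to 159.8 CPM in SAL with a median of 58.9, and from 28.4 to 126 CPM in PRL with a median of 88.9. Bhmt2, a methyltransferase that remakes methionine, was at 3.20 CPM, a single count, in SAL replicate 6 and at 30.1 to 95.9 CPM in the other SAL libraries, and ran from 19.8 to 83.7 CPM in PRL. These enzymes varied widely from animal to animal in both groups. Ahcy, which splits S-adenosylhomocysteine, measured 20.8 ± 6.67 CPM in SAL and 27.2 ± 8.13 CPM in PRL. Cbs, which makes cystathionine, had 25 counts and Bhmt had 1.

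The branched-chain group is the largest, with 11 members, all tested in the females. Hibadh, the 3-hydroxyisobutyrate dehydrogenase of valine breakdown, ran from 73.6 to 356 CPM in SAL with a median of 209.7, and from 136 to 342 CPM in PRL with a median of 215. Pcca and Pccb, the subunits of propionyl-CoA carboxylase, measured 66.1 ± 19.7 and 95.3 ± 32.4 CPM in SAL, against 69.2 ± 26.2 and 102 ± 47.2 CPM in PRL. The other 8 members of the group had between 67 and 258 counts each. Among the acylases, Acy1, which frees amino acids from their acetyl forms, measured 159 ± 65.2 CPM in SAL and 181 ± 65.1 CPM in PRL. Acy3, a related acylase, measured 194 ± 90.4 CPM in SAL and 192 ± 63.6 CPM in PRL. Miox, the oxygenase that opens inositol degradation and the member with most counts at 2525, ran from 306 to 799 CPM in SAL with a median of 482, and from 304 to 787 CPM in PRL with a median of 522.

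**Figure D1:**
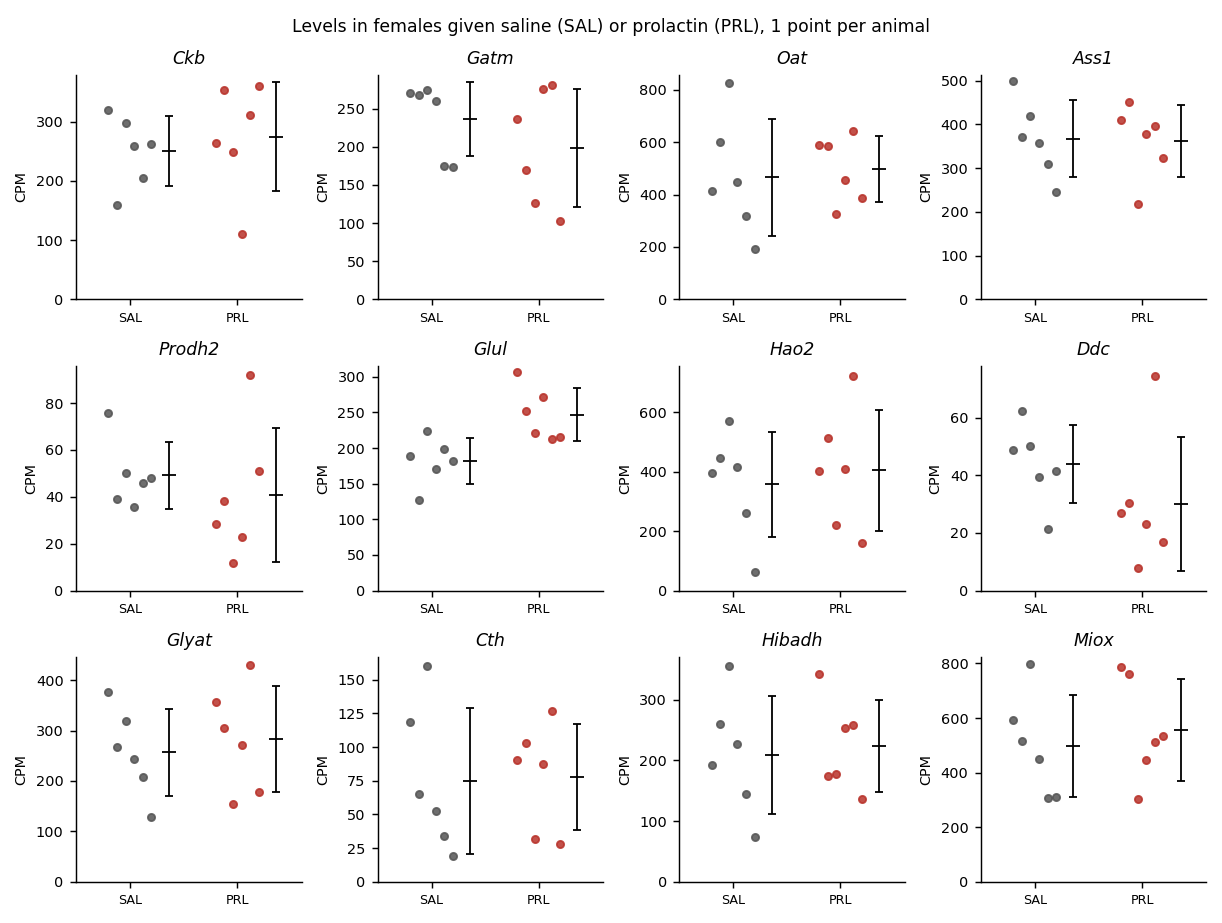
Level in CPM (vertical axis) of 12 members in each SAL and PRL library, 1 point per animal in the order of the replicates, with the mean and SD between animals beside them. In these CPM, without TMM scaling, the PRL points of Glul all lie above the SAL median of 186 CPM. Only 1 PRL point of Ddc lies above its SAL median. The points of the other members overlap widely.

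Members differed in how much they varied between animals. Over the 39 members with at least 100 counts, the coefficient of variation within a group, averaged over SAL and PRL, had a median of 38.4%, and counting error alone would give a median of 21.7%. Glul varied by 16.4% and Gldc by 18.0%, close to their counting errors of 12.3% and 16.2%. Bhmt2 varied by 65.7% and Cth by 61.4%, against counting errors of 26.7% and 20.4%. Hao2 varied by 49.7% and Oat by 36.7%, several times their counting errors of 9.13% and 8.12%.

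Ddc was lower in PRL, with a log2 fold change of -0.70 (SE 0.33, adjusted p = 0.993 with edgeR). A two-sided exact permutation test of the mean CPM of Ddc gave p = 0.232, and PRL replicate 5 was its highest library. Glul was higher in PRL, with a log2 fold change of 0.40 (SE 0.20, unadjusted p = 0.0575 and adjusted p = 0.998 with edgeR). Glul was the only member with a two-sided exact permutation p under 0.05, which was p = 0.00866 before any adjustment. Of all genes, 4.54% had such a p, and the smallest that 6 against 6 libraries allow is 0.00216. The permutation test used CPM without TMM scaling.

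A difference larger than its own standard error was found for 12 of 47 members, or 25.5%, beside 30.5% of all genes. Among the named members these were, besides Ddc and Glul, 6 more. Bhmt2 had a log2 fold change of 0.50 (SE 0.36), Dao of 0.40 (SE 0.32) and Fah of 0.34 (SE 0.26), each higher in PRL. Prodh2 had one of -0.39 (SE 0.31), Gatm of -0.35 (SE 0.22) and Gldc of -0.31 (SE 0.22), each lower in PRL. The adjusted p of these 6 members was 0.998 for each with edgeR. For the members with at least 100 counts, the differences lay between -0.70 and 0.50 and their 95% intervals between -1.34 and 1.21 on the log2 scale. The intervals of less sampled members reached past 1 on that scale as well. Differences of such a size were not excluded at this depth for members with intervals that wide.

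**Figure D2:**
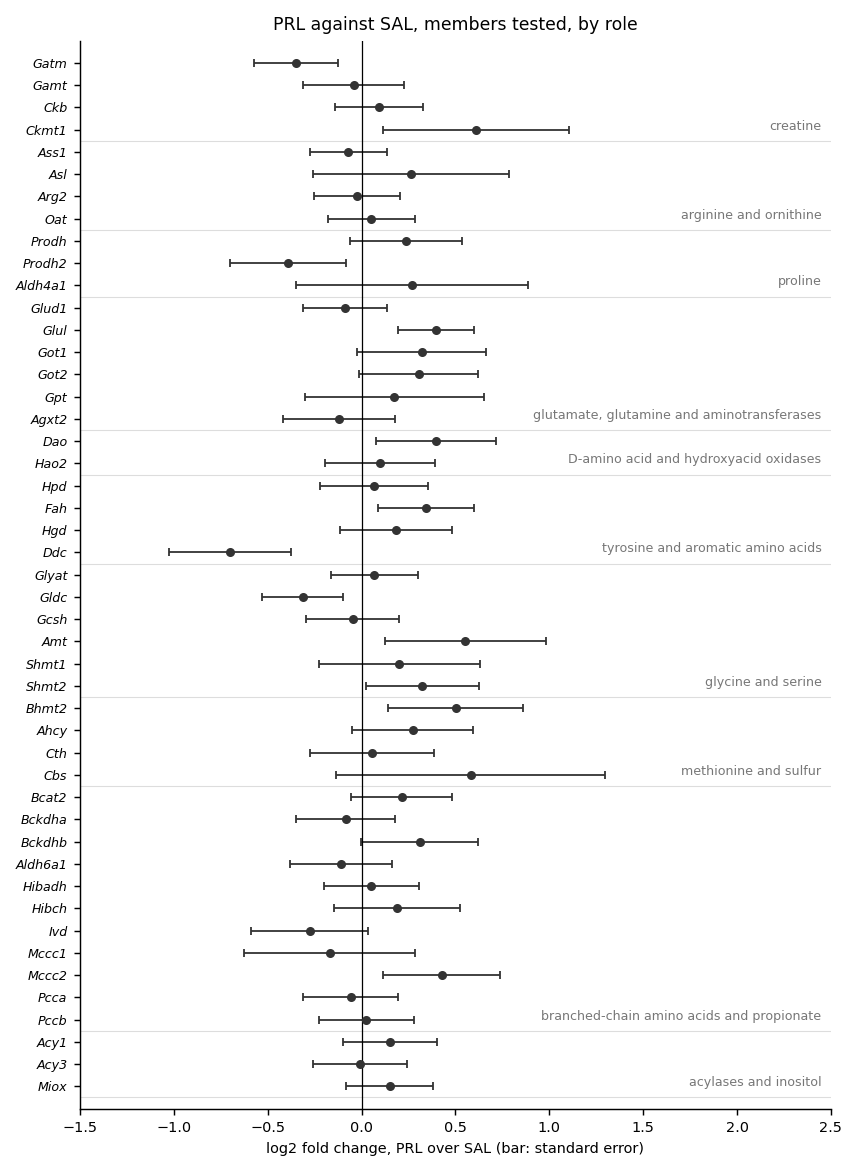
Log2 fold change of PRL over SAL (horizontal axis) with its standard error for the 47 members tested, grouped by role. Values run from -0.70 for Ddc to 0.61 for Ckmt1, and the bars of 35 members cross 0.

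By role, only the oxidases and the methionine and sulfur group stood on 1 side, with 2 of 2 and 4 of 4 tested members at a log2 fold change above 0. It was above 0 in 4 of 6 members of the glutamate group, while the branched-chain group was split 6 to 5 and the creatine group 2 to 2. Over all roles, 31 of 47 members were above 0, with a median of 0.10, beside 52.7% of all genes and a median of 0.03. That count turned on single libraries. Without SAL replicate 6 it was 23 of 47, with a median of -0.05, and without PRL replicate 3 it was 36 of 47. Of the oxidases and the sulfur group, Hao2, Cth and Bhmt2 had their lowest SAL value in SAL replicate 6, and Dao, Ahcy and Cbs did not.

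The same libraries were low in many members. SAL replicate 6 held the lowest SAL value in 23 of the 46 members with at least 10 counts in SAL, and SAL replicate 3 the highest in 25. In PRL, replicate 3 was lowest in 25 of 47 members and replicate 5 was highest in 24. In SAL replicate 6, Hao2 was at 60.8 CPM where the other SAL libraries were at 260.1 to 571, Oat was at 192 CPM where they were at 318 to 827, and Shmt1 had no count. The reduction was not shared by every member. Ckb at 263 CPM, Glul at 182 CPM and Prodh2 at 48.0 CPM lay near the medians of the other SAL libraries, which were 259.6, 189 and 45.9 CPM, and Gldc at 154 CPM and Glud1 at 115 CPM lay above all of them. Of 41 members with a mean of at least 15 CPM in the other SAL libraries, 21 were below all of these, 14 were under 0.5 times their median and 6 were at or above it. No share over all genes is given beside these counts, so that they do not set the members apart from other genes of these libraries.

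**Figure D3:**
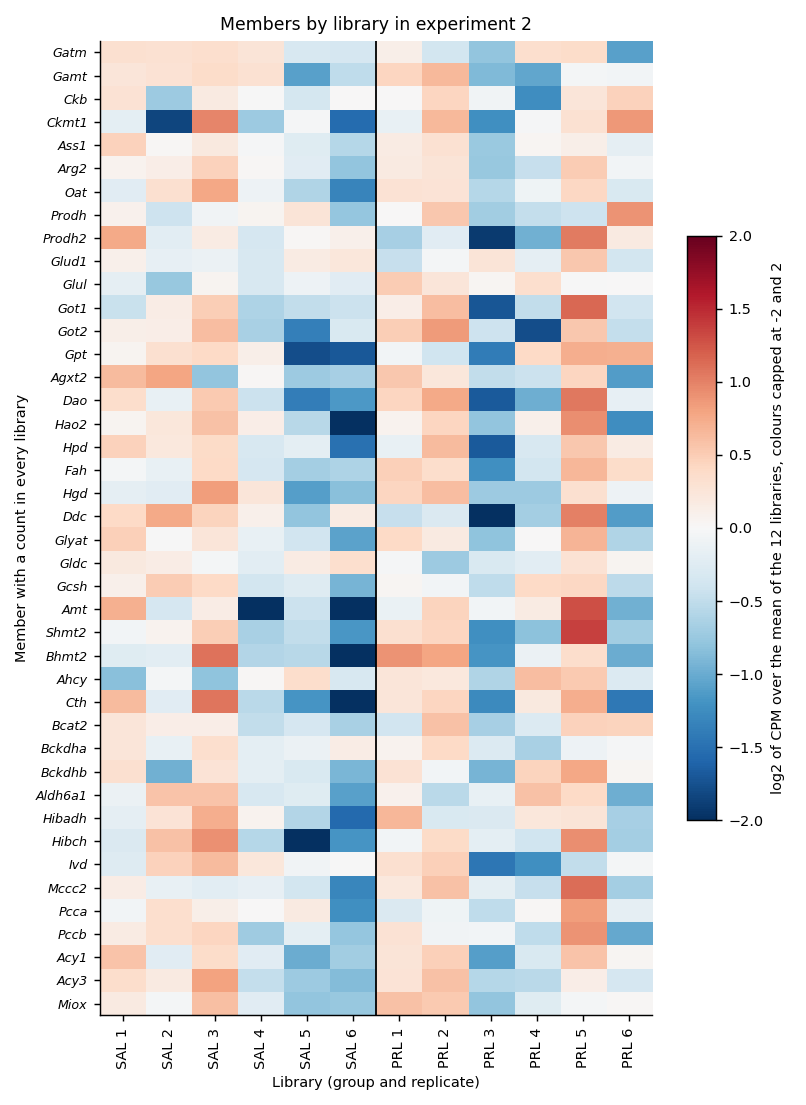
Log2 of the CPM in a library over the member's mean in the 12 libraries of experiment 2 (colour, capped at -2 and 2), for the 42 members (rows) with a count in every library (columns). SAL replicate 6 and PRL replicate 3 are low in many members, SAL replicate 3 and PRL replicate 5 are high, and Glul and Gldc vary little.

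The share of all counts that the members held followed the same libraries. It was 0.493 ± 0.144% in SAL and 0.528 ± 0.140% in PRL. It reached 0.698% in SAL replicate 3 (95% Wilson interval 0.664% to 0.734%) and 0.303% in SAL replicate 6 (0.284% to 0.323%). In PRL it lay between 0.337% in replicate 3 and 0.697% in replicate 5. The groups covered the same range, and these intervals and the limits for a gene without a count cover counting error only. The summed level of the 10 proximal tubule markers, of which 9 were listed, was 522 CPM in SAL replicate 6, the lowest of SAL, and 744 to 1433 CPM in the other SAL libraries. It was 720 CPM in PRL replicate 3 and 664 to 1562 CPM in the other PRL libraries. Without Lrp2, the sum was lowest in the same libraries, at 259 CPM in SAL replicate 6, where the other SAL libraries were at 340.4 to 717, and at 293 CPM in PRL replicate 3, where the other PRL libraries were at 418 to 813. The 7 markers of the thick limb and distal tubule, 7 of 7 listed, were also lowest in SAL replicate 6 at 563 CPM, with 886 to 1649 CPM in the other SAL libraries. The 6 collecting duct markers, 6 of 6 listed, were at 554 CPM there and at 518 to 868 CPM in the others. In PRL replicate 3 the thick limb and distal tubule sum was 961 CPM, above PRL replicate 6 at 712 CPM. SAL replicate 3 and PRL replicate 5, with the highest shares, had the highest such sums of their groups, 1649 and 1953 CPM. Their proximal tubule sums were 1114 and 1109 CPM, under 1433 CPM in SAL replicate 1 and 1562 CPM in PRL replicate 2. The part of tubule content in the members' levels was not tested.

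**Figure D4:**
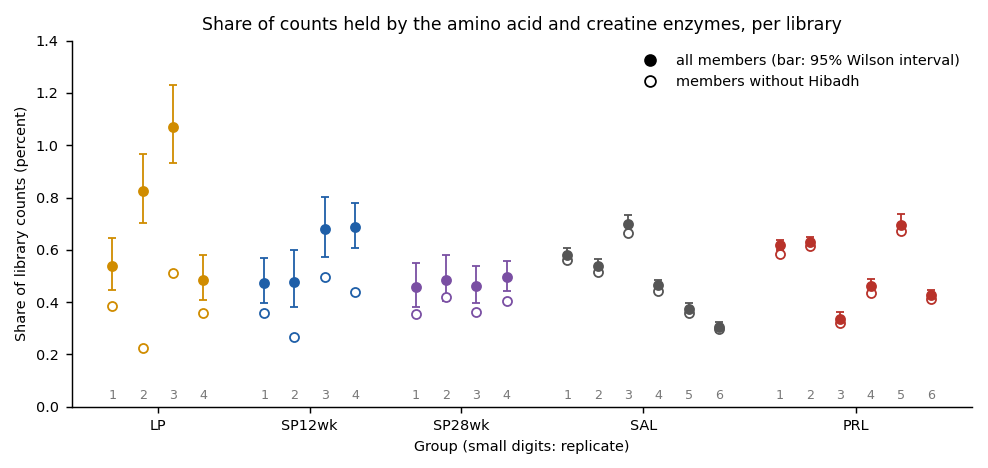
Share of library counts held by all members (filled points, with 95% Wilson intervals) and by the members without Hibadh (open points) in each library, in percent, by group and replicate. LP replicates 2 and 3 have the highest shares, 0.824% and 1.07%, which are 0.224% and 0.511% without Hibadh, and the SAL and PRL libraries cover the same range.

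In the males, 26 members passed the filter on low counts and 25 of the 42 listed had fewer than 10 counts over the 12 libraries. Cth, Got1, Aldh4a1, Bckdhb, Cbs, Ddo, Bhmt and Pycr1 were not listed. No member passed an adjusted p of 0.05 with edgeR in any of the 3 comparisons. That was beside 0.0197% of 5086 genes for SP12wk against LP, 0.138% for SP28wk against SP12wk and 0.216% for SP28wk against LP. DESeq2 and limma-voom gave 0 members after adjustment as well. The standard errors had medians of 0.79, 0.76 and 0.78 on the log2 scale in these comparisons, more than the 0.30 of the females.

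SP12wk against LP addresses the first response to short days. At an unadjusted p under 0.05 there were 3 members, Glyat, Ddc and Acy3, all higher in SP12wk, beside 7.27% of all genes in either direction and 4.58% higher. DESeq2 gave 0 such members and limma-voom 2, and edgeR gave 0 without LP replicate 2 or without LP replicate 4. Over all genes, DESeq2 gave 130 and limma-voom 450 of 5086. With edgeR there were 253 of 4880 genes without LP replicate 2 and 461 of 4888 without LP replicate 4. Glyat measured 141, 0, 111 and 38.8 CPM in LP and 81.7, 191, 251 and 283 CPM in SP12wk, so that the groups overlapped in 1 SP12wk library. Its log2 fold change was 1.62 (SE 0.75, adjusted p = 0.5997 with edgeR), or 1.23 without LP replicate 2. Ddc and Acy3 had no count in LP and 4 counts each in SP12wk, at least 1.16-fold higher against a limit of 3 counts over the group. Both passed the filter on low counts through short-day libraries alone, so that they could only come out as higher than in LP. The 4 counts of Acy3 came from 2 libraries, and no member had groups that did not overlap, as 2.67% of all genes had. The median log2 fold change of the 26 members was 0.15, or 0.13 with members without a count in a group set to their limit, beside 0.00 over all genes, and 16 of 26 were above 0, beside 52.6% of all genes. The median turned to -0.08 without SP12wk replicate 4 and to -0.02 with library totals, where that of all genes was -0.17, and reached 0.40 without LP replicate 4.

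SP28wk against SP12wk follows the later weeks in the same short photoperiod. Acy1 and Gcsh had an unadjusted p under 0.05, or 2 of 26 members beside 6.1% of all genes in either direction, 4.6% higher and 1.49% lower. DESeq2 and limma-voom each gave 1 member, beside 54 and 348 of all 5086 genes. Acy1 measured 204, 63.7, 151 and 141 CPM in SP12wk and 39.5, 0, 28.6 and 69.5 CPM in SP28wk. The groups overlapped, and its log2 fold change was -1.55 (SE 0.78, adjusted p = 0.799 with edgeR). Gcsh had no count in SP12wk and 4 counts in SP28wk, too few for a fold. It passed the filter without a SP12wk library, so that it could only come out as higher. Hibadh was the only member whose groups did not overlap in CPM, as 1.53% of all genes were lower without overlap. CPM carries no TMM scaling, which edgeR uses. The TMM factors were 0.770 for SP28wk replicate 4 and 0.970 for SP12wk replicate 1, the lowest SP12wk library for Hibadh. The gap of Hibadh between SP28wk and SP12wk therefore depended on the scaling. The members' median was -0.06, or -0.10 with limits, beside 0.16 over all genes, and 12 of 26 were above 0, beside 58.3% of all genes. The median turned to 0.05 without SP12wk replicate 4 and to 0.07 with no filter or with sums over transcripts, and was -0.36 without SP12wk replicate 2.

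SP28wk against LP compares late short days with long days. Here 6 members had an unadjusted p under 0.05, Gatm, Hao2, Ddc and Acy3 higher and Hibadh and Acy1 lower, beside 8.61% of all genes in either direction, 6.69% higher and 1.93% lower. DESeq2 gave 2 and limma-voom 4, beside 120 and 562 of all 5086 genes. With edgeR there were 2 members without LP replicate 2 and 1 without LP replicate 1 or 3. Over all genes, edgeR gave 237 of 4880 without LP replicate 2. It gave 414 of 4916 without LP replicate 1 and 254 of 4863 without LP replicate 3. Gatm measured 94.1, 56.1, 55.5 and 233 CPM in LP, whereas SP28wk had 198, 166, 257 and 295 CPM and SP12wk lay between 40.9 and 169.6 CPM. Only LP replicate 4 reached the range of SP28wk, and the log2 fold change of SP28wk over LP was 1.32 (SE 0.64, adjusted p = 0.552 with edgeR), with a range from 1.00 without LP replicate 2 to 2.10 without LP replicate 4. Acy1 had LP values of 235, 56.1, 277 and 116.5 CPM, of which 1 lay in the range of SP28wk, and a log2 fold change of -1.58 (SE 0.78, adjusted p = 0.559 with edgeR), or -1.93 without LP replicate 2, the library with that value. Hao2, Ddc and Acy3 had no count in LP and 4, 5 and 5 counts in SP28wk, in 2, 2 and 3 libraries, which left no fold above the limit. They too passed the filter through short-day libraries alone and could only come out as higher than in LP. The median over the members was 0.44, or 0.24 with limits, beside 0.18 over all genes, and 17 of 26 were above 0, beside 58.7% of all genes. With single libraries left out it ran from 0.09 without LP replicate 2, where that of all genes was 0.12, to 0.57 without LP replicate 4. The comparisons share groups, so that their values are not independent.

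Glud1 and Hibadh were lower without overlap in SP28wk than in LP, as were 1.73% of all genes. Glud1 measured 141, 168, 167 and 116.5 CPM in LP, which was 3 counts in each library, and 79.0, 83.0, 85.7 and 69.5 CPM in SP28wk, which was 2 to 4 counts. Its log2 fold change was -0.50 (SE 0.73, adjusted p = 0.907 with edgeR), within its standard error.

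Hibadh took 32.3% of all member counts in the males and 4.14% in the females. The hamster reads were aligned to the mouse genome, and whether all of these counts came from Hibadh transcripts was not tested. It measured 1505, 6001, 5604 and 1282 CPM in LP replicates 1 to 4, from 32, 107, 101 and 33 counts. It measured 1144, 2104, 1807 and 2487 CPM in SP12wk and 1028, 664, 1028 and 938 CPM in SP28wk. LP replicates 2 and 3 were above every other library, and LP replicates 1 and 4 lay within the range of SP12wk. In these CPM, without TMM scaling, all SP28wk libraries lay under all others. The log2 fold change was -0.60 (SE 0.45, adjusted p = 0.757 with edgeR) for SP12wk over LP and -0.87 (SE 0.46, adjusted p = 0.873) for SP28wk over SP12wk. For SP28wk over LP it was -1.48 (SE 0.46, adjusted p = 0.184 with edgeR). The two-sided exact permutation p for Hibadh was 0.0286 for SP28wk against LP and against SP12wk, the smallest that 4 against 4 libraries allow. Of all genes, 3.3% and 3.38% had such a p. That permutation test used CPM without TMM scaling. A pair of settings brought the edgeR value under the threshold. With library totals in place of TMM scaling, the adjusted p for SP28wk against LP was 0.00376 at a log2 fold change of -1.95, and without LP replicate 4 it was 0.0178 at -1.75. More genes passed in these settings as well, 13 of 5086 with library totals and 54 of 4888 without LP replicate 4. With TMM and all libraries, 11 of 5086 genes passed. Without LP replicate 2 the adjusted p for Hibadh with edgeR was 0.331 at -1.24, and over all alternatives it ran from 0.00376 to 0.738.

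The scaling moved all genes as well. The median log2 fold change over all genes for SP28wk against LP was 0.18 with TMM and -0.16 with library totals, and Hibadh differed from it by -1.66 and -1.80. The TMM factors of LP replicates 2 and 3 were 1.41 and 1.25, the highest of the experiment, in which they ran from 0.770 upward. The libraries of LP replicates 2 and 3 were also the highest LP libraries for Nme7, Kalrn and Prex2, which are no members and were picked after their values were seen. Nme7 measured 1552, 4767, 4217 and 1243 CPM in LP and 747 to 1676 CPM in the short-day libraries. What these libraries share beside their level of Hibadh was not tested. Of the 11 members with at least 10 counts in LP, Ckb, Glul, Prodh and Glud1 were also highest in LP replicates 2 and 3, on 12 to 21 counts each. Glul measured 235, 393, 444 and 38.8 CPM in LP, Ckb 188, 280.4, 388 and 116.5 CPM, and Prodh 141, 224, 222 and 38.8 CPM. The other 6 were not highest in both. Miox measured 753, 0, 1609 and 855 CPM in LP, so that LP replicate 2 had no count where the other LP libraries had 16, 29 and 22, and Gldc was lowest in the same library at 56.1 CPM. Without Hibadh, the members' share of counts was 0.369% in LP, 0.391% in SP12wk and 0.384% in SP28wk, where with it the shares were 0.729 ± 0.272%, 0.579 ± 0.119% and 0.476 ± 0.0182% (n = 4).

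**Figure D5:**
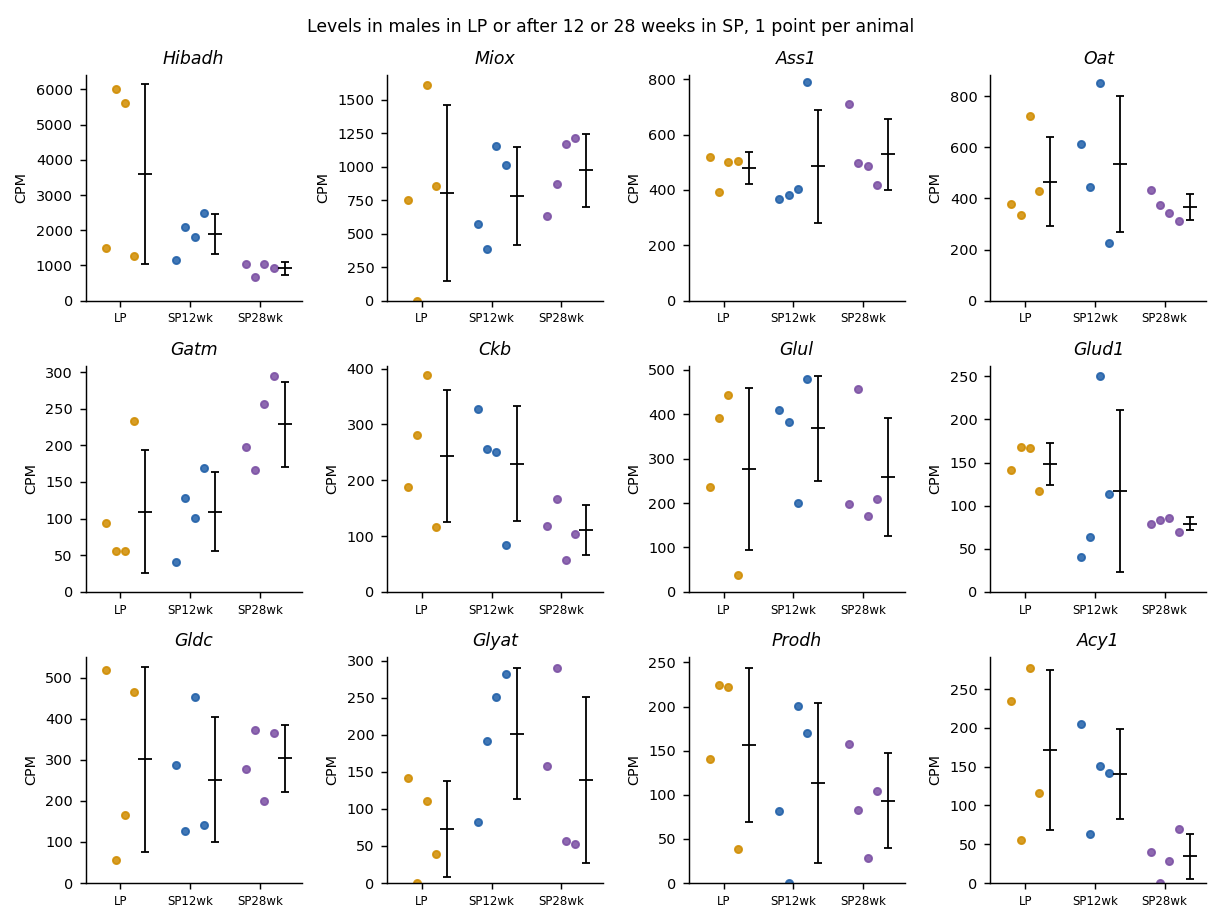
Level in CPM (vertical axis) of 12 members in each LP, SP12wk and SP28wk library, 1 point per animal in the order of the replicates, with the mean and SD between animals beside them. Hibadh is high in LP replicates 2 and 3 and lowest in SP28wk, Gatm is highest in SP28wk, and Miox has no count in LP replicate 2.

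Of the other well sampled members of experiment 1, Ass1, Oat, Miox, Gldc, Glul and Ckb had no unadjusted p under 0.05 with edgeR in any comparison. From LP through SP12wk to SP28wk, Ass1 measured 479 ± 57.8, 486 ± 204 and 528 ± 127 CPM (n = 4 each). Oat measured 465 ± 175, 535 ± 265 and 366 ± 52.2 CPM, Miox 804 ± 658, 782 ± 364 and 973 ± 274 CPM, and Gldc 302 ± 225, 252 ± 151 and 304 ± 81.8 CPM in the same order. Glul measured 278 ± 182, 368 ± 119 and 258 ± 133 CPM, and Ckb 243 ± 118, 229 ± 103 and 111 ± 44.8 CPM. The groups of each of these 6 members overlapped in every comparison. Prodh, Pcca and Fah had 37, 33 and 14 counts over the experiment and overlapped likewise.

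The remaining genes of these pathways were taken from a list of 84, of which 33 were tested in the males and 60 in the females. None passed an adjusted p of 0.05 with edgeR, and 3, 3, 3 and 4 had an unadjusted p under 0.05 in the comparisons of SP12wk with LP, of SP28wk with SP12wk, of SP28wk with LP and of PRL with SAL. The shares over all genes at such a p were 7.27%, 6.1%, 8.61% and 4.88% in the same order. Gnmt, the glycine methyltransferase, had the smallest p of these pathway genes in the females, with means of 62.7 ± 18.0 (SAL) and 33.7 ± 14.3 CPM (PRL) and a log2 fold change of -0.83 (SE 0.29, adjusted p = 0.535 with edgeR). Pcbd1, which recycles the cofactor of phenylalanine hydroxylase, had the smallest in SP28wk against LP, with 223 ± 243 CPM in LP and 738 ± 244 CPM in SP28wk and a log2 fold change of 1.92 (SE 0.52, adjusted p = 0.0832 with edgeR). Mcee, the methylmalonyl-CoA epimerase of propionate breakdown, had no count in LP and 8 counts in SP12wk and 16 in SP28wk. It had the smallest p in SP12wk against LP (adjusted p = 0.575 with edgeR), and its adjusted p in SP28wk against LP was 0.103. Auh had the smallest p in SP28wk against SP12wk (adjusted p = 0.614 with edgeR). It had 5 counts in LP, 0 in SP12wk and 9 in SP28wk.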

How the data were processed

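Per the methods, basecalling and demultiplexing used Guppy 4.2.1. The authors then removed adapters with Porechop 0.2.4, kept reads of at least 25 bases and a mean quality of 9 with Filtlong 0.2.0 and aligned the hamster reads with Minimap2 2.17 to the mouse reference genome. The authors deposited estimated counts per mouse RefSeq transcript, which were not scaled to library size. Salmon is named in the submitters' processing notes without a role, and the program that counted reads per transcript was not given in the sources used here. In addition, the labels name a PCR-cDNA kit and the methods a direct cDNA kit under the same catalogue numbers. Sequence divergence between hamster and mouse can lower the level of a gene, so that levels were compared within a gene.

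For each gene the transcript with the highest total was kept, since transcripts of a gene often repeat the same counts, and CPM was its count over the library total of such transcripts. In R 4.3.3, counts were rounded and fitted with edgeR 4.0.16 (TMM, quasi-likelihood test), 1 model per experiment without covariates, keeping genes counted in 4 or more of 12 libraries (experiment 1) or 6 or more of 12 (experiment 2). Benjamini-Hochberg adjustment was over all genes tested. The standard error was the log2 fold change over the square root of F, and intervals were 1.96 standard errors. The scripts were tested on simulated data. Alternatives were no filter, a stricter filter (8 and 12 libraries), DESeq2 1.42.0, limma-voom (limma 3.58.1), library totals, sums over transcripts, a block for the replicate number and each library left out in turn. For single values, exact permutation tests, two-sided, were run over the libraries. Named were the 3 members of each of 10 roles with the highest mean CPM in experiment 2 and members with an unadjusted p under 0.05. The members, roles and lists were chosen with earlier results of these data known.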

Additional observations from a re-analysis of the deposited data

Results flagged for a closer look

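In 7 of the 84 groups of libraries checked, which were the named members and the members' share of counts in each group with at least 20 counts, a single library stood apart, its gap to the next one being large against the range of the group. Chance flags about 1 in 20 groups. Ass1 was at 392.6 CPM in its lowest LP library, where the next was at 499, and at 791 CPM in its highest SP12wk library, where the next was at 402. Glul was at 456 CPM in its highest SP28wk library, where the next was at 208. In the females, Prodh2 was at 75.7 CPM in its highest SAL library and the next was at 50.2, and Ddc was at 74.7 CPM in its highest PRL library and the next was at 30.4. Pcca was at 28.8 CPM in its lowest SAL library, where the next was at 64.9, and at 121 CPM in its highest PRL library, where the next was at 69.0.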

How the results depend on the processing

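The number of members past the adjusted threshold stayed at 0 under every alternative in SP12wk against LP, SP28wk against SP12wk and PRL against SAL. Over all genes in PRL against SAL, 92 of 15826 passed with no filter. Without SAL replicate 6, PRL replicate 3 or PRL replicate 4 there were 27 of 10460, 26 of 10464 and 44 of 10490. Apart from the replicate block, the other alternatives gave 0 or 1 there. In SP28wk against LP the number of members was 1, Hibadh, with library totals, and between 0 and 1 with single libraries left out (1 without LP replicate 4). Over all genes, 13 of 5086 passed there with library totals and 54 of 4888 without LP replicate 4. With TMM and all libraries 11 of 5086 genes passed. The cause was not tested. Numbers at an unadjusted p under 0.05 were small and moved. For SP12wk against LP (3 members) they were 1 with the stricter filter, 0 with DESeq2 and 0 to 4 with libraries left out (1 without LP replicate 1 or 3 or SP12wk replicate 4, 0 without LP replicate 2 or 4). For SP28wk against SP12wk (2) they were 1 with the stricter filter, DESeq2, limma-voom and sums over transcripts, and 0 to 2 with libraries left out (1 without SP12wk replicate 1, 2 or 4 or SP28wk replicate 1 or 4, 0 without SP28wk replicate 2 or 3). For SP28wk against LP (6) they were 3, 2 and 2 with the stricter filter, DESeq2 and library totals, and 1 to 5 with libraries left out (1 without LP replicate 1 or 3, 2 without LP replicate 2, 3 without SP28wk replicate 1, 3 or 4). For PRL against SAL (1) they were 2 with the stricter filter, DESeq2 and limma-voom, and 0 to 2 with libraries left out (0 without SAL replicate 2 or PRL replicate 1, 3 or 6, 2 without SAL replicate 3 or PRL replicate 4 or 5). Over all genes, the stricter filter gave 170, 134 and 177 of 2607 in the males and 339 of 5632 in the females. In the females, all genes gave 427 of 10217 without PRL replicate 1 and 564 of 10464 without PRL replicate 3. They gave 562 of 10490 without PRL replicate 4. For SP28wk against SP12wk they gave 254 of 4882 without SP28wk replicate 2 and 226 of 4784 without SP28wk replicate 3. Whether the members moved more than all genes was not tested. Same-numbered libraries showed no common deviation (correlations from -0.0501 to 0.0863, own number best in 1 of 4, 0 of 4, 2 of 4 and 2 of 6). With so few libraries this cannot exclude a pairing by number, and the samples were treated as unpaired. A block for the replicate number gave 0 members past the adjusted threshold in all 4 comparisons, where 94 of all genes passed in PRL against SAL, and 1, 0, 4 and 1 members without adjustment. Without adjustment it gave 256, 209 and 298 of 5086 genes in the males and 445 of 10696 in the females. The log2 fold changes given with a standard error for members kept their sign under these alternatives, and the medians over the members in SP12wk against LP, SP28wk against SP12wk and PRL against SAL did not (-0.08 to 0.40, -0.36 to 0.05 and -0.05 to 0.19 with libraries left out). The members' share of counts was 0.333%, 0.332% and 0.268% in LP, SP12wk and SP28wk with sums over transcripts, and 0.369%, 0.391% and 0.384% without Hibadh, an alternative chosen after seeing the data. Most members of experiment 1 had under 10 counts, which limits them to large differences.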
